A study of Canis lupus familiaris with 8 samples.

Results

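Adrenal cortex RNA of a Beagle exposed to chronic stress was set against that of an unexposed Beagle, with 1 sequencing library on each side. The pair was chosen by its labels, as 2 of the 8 libraries of the study, the others being Beagle pituitary and both tissues of the Chinese Field Dog. All dogs were labelled adult. The stressed library carries the label of chronic stress exposure, and the other is labelled non-disposal, a term taken here to mean that the dog was not exposed. The labels do not say what the stressor was, how long it lasted, which sex the dogs had, or if RNA of several dogs was pooled. The extraction note speaks of spleen although tissue, source and title give adrenal cortex. With 1 library a side there is no spread between animals, so no difference below has a replicate check or a p-value. Intervals given with read ratios cover counting error only, and PCR copies are not independent molecules.

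The adrenal cortex makes cortisol and aldosterone from cholesterol. Pituitary ACTH acts through the receptor MC2R and cyclic AMP to move cholesterol into the mitochondrion, where the steroid pathway begins, and during prolonged stress this axis is repeatedly or continuously driven. The cortex wraps around the medulla, whose chromaffin cells make adrenaline and noradrenaline, and the gland is bounded by a capsule set in fat and crossed by nerves, so a piece of cortex can carry RNA of all these tissues.

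The stressed library held 18109606 reads in genes and the unexposed library 15803905, while the 2 Chinese Field Dog adrenal libraries held 16289200 (stressed) and 18712035 (unexposed). Reads were seen for 17514 genes in the stressed and 17426 in the unexposed Beagle library. The 10 genes with most reads took 15.1% of them in the stressed and 12.5% in the unexposed library. Levels are given as FPKM, fragments scaled to transcript length and library depth, as the authors deposited them.

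Both libraries carried the genes of steroid-making cortex. The cholesterol carrier STAR stood at 5079 FPKM in the stressed and 6288 FPKM in the unexposed library, the 17-hydroxylase CYP17A1 at 4944 and 4949 FPKM, and the side-chain cleavage enzyme CYP11A1 at 1968 and 1912 FPKM. The 8 adrenal cortex markers that could be matched summed to 15035 FPKM in the stressed and 16703 FPKM in the unexposed library. Medulla markers were abundant too: all 8 were detected, and they summed to 4711 FPKM in the stressed and 5585 FPKM in the unexposed library. Spleen was nearly absent. The spleen homeobox gene TLX1 had 0 reads in both libraries (a true value of up to 3 reads in each could give that), NKX2-3 had 1 read in the stressed and 0 in the unexposed library, and the 5 matched spleen and B-cell markers summed to 1.70 FPKM in the stressed and 0.930 FPKM in the unexposed library. These values go with the adrenal label and not with the spleen named in the extraction note.

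Far more genes were lower than higher in the stressed library. Ratios were taken as log2 of (FPKM + 1) in stressed over unexposed, over the 13730 genes with a mean of at least 1 FPKM, and a gene was counted as different at 2-fold or more. Of these, 450 (3.28%) were different, 114 (0.83%) being higher and 336 (2.45%) lower with stress. The median gene differed by 0.0018. Many of the higher genes rested on very few reads: with at least 100 reads over both libraries, 245 of 12239 genes (2.0%) remained, 22 higher (0.18%) and 223 lower (1.82%). The split was 74.67% lower among all calls by FPKM, 89.68% lower when ratios were taken from reads scaled to library depth, and 88.12% lower after rescaling with TMM factors. The Chinese Field Dog adrenal pair, treated the same way, had 275 of 13634 genes different (2.02%), 135 higher (0.99%) and 140 lower (1.03%).

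**Figure D1:**
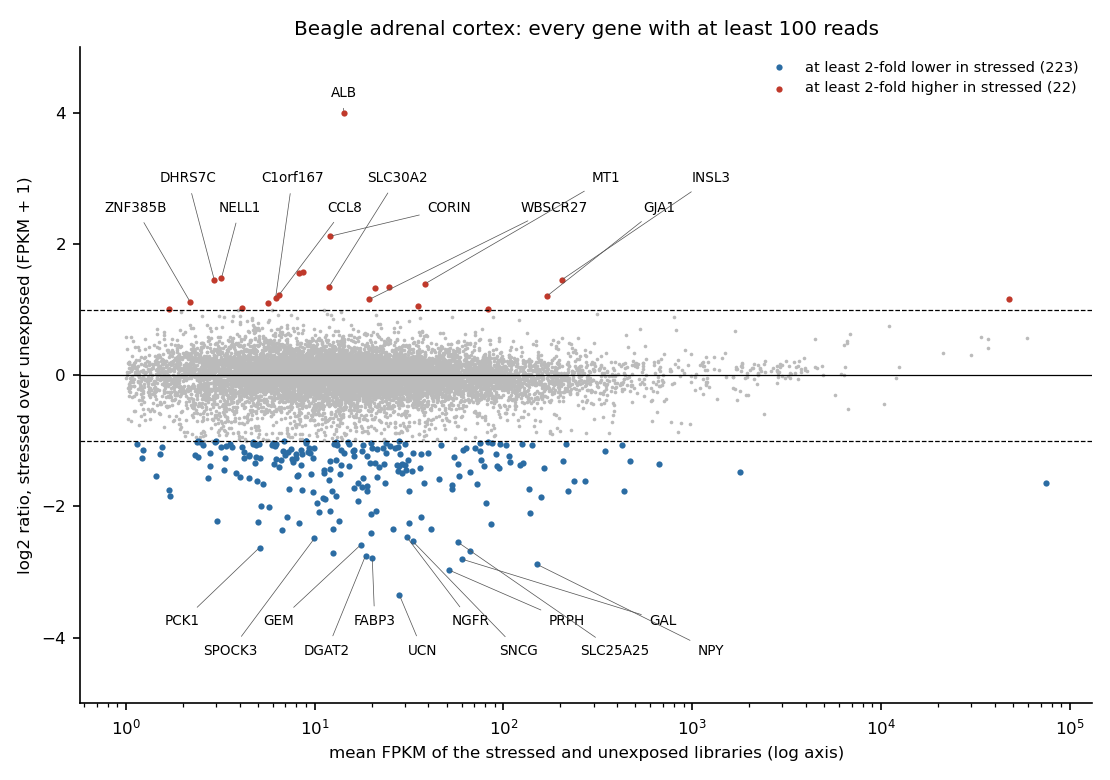
Each point is a gene with at least 100 reads over both Beagle adrenal libraries, with its mean FPKM on a log axis and its log2 ratio of stressed over unexposed. The 223 genes at least 2-fold lower spread over the whole range of levels down to a log2 ratio of -3.35, while only 22 lie at or above the upper dashed line, with ALB at 4.0.

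The library that stood apart was mostly the unexposed one. Among the 223 lower genes, the unexposed Beagle library was the highest of the 4 adrenal libraries for 210 genes (94.2%), against 28.6% of all 12239 genes. The stressed library was the lowest of the 4 for 86 of them (38.6%), against 20.4% of all genes. Measured from the mean of the 2 Chinese Field Dog libraries, the median of the 223 genes was -0.0017 in the stressed and 1.36 in the unexposed Beagle library on the log2 scale. For 137 genes the unexposed library was the highest without the stressed one being the lowest, and for 13 genes the reverse held. A gene enters this set by its ratio, which favours both a low stressed and a high unexposed value, so the counts describe which of the libraries lay away and are not a test. Stress and the one unexposed library cannot be told apart as the source of these differences.

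**Figure D2:**
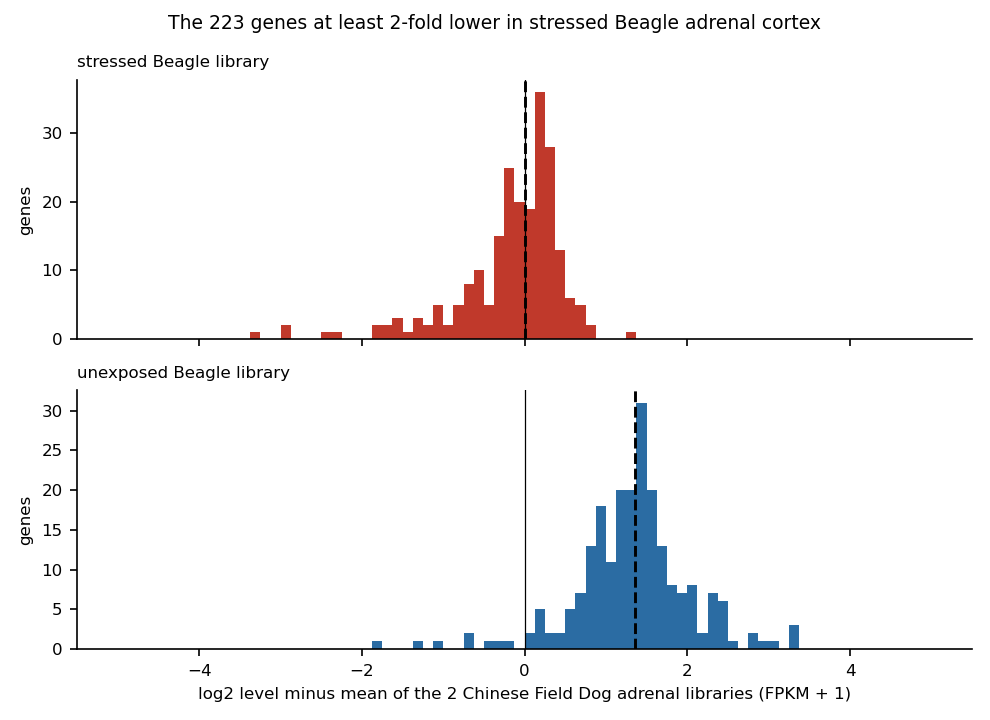
Histograms of the 223 genes at least 2-fold lower in the stressed Beagle library, by their distance on the log2 scale from the mean of the 2 Chinese Field Dog adrenal libraries. The stressed Beagle values (upper panel) centre on -0.0017 and the unexposed Beagle values (lower panel) on 1.36, marked by dashed lines.

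Among genes with a symbol used once and at least 100 reads, the 12 lowest ratios ran from -2.47 to -3.35. They belonged to UCN, PRPH, NPY, GAL, FABP3, DGAT2, PCK1, GEM, SLC25A25, SNCG, SPOCK3 and NGFR. In each the unexposed Beagle library was the highest of the 4 adrenal libraries, which selection by ratio favours. Of the 223 lower genes, 189 had a symbol used once. Nerve genes were prominent. PRPH, peripherin, an intermediate filament of peripheral neurons (chromosome 27, 5314757 to 5318479), had 10.9 FPKM in the stressed and 92.3 FPKM in the unexposed Beagle library, and 7.77 and 13.8 FPKM in the stressed and unexposed Chinese Field Dog libraries. Its log2 ratio in the Beagle was -2.97, from 291 stressed and 2209 unexposed reads, with a counting interval of -3.30 to -2.94 on the read ratio. The stressed Beagle and both Chinese Field Dog libraries lay near each other, and the unexposed Beagle library lay well above all 3.

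Neuronal markers were among the lists with the lowest medians. Of 20 genes of neurons and nerve endings at or above the FPKM filter, 19 were lower and 1 higher in the stressed library, and 14 were at least 2-fold lower (70%), beside 2.45% of all genes. Their median log2 ratio was -1.27. The unexposed Beagle library was the highest of the 4 for 18 of the 20, beside 28.6% of all genes with at least 100 reads. In the Chinese Field Dog pair the median of the list was -0.44. RBFOX3, the nuclear marker of mature neurons, was below the filter at 1 read in the stressed and 2 in the unexposed library.

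Within the list the size of the difference varied widely. STMN2, a microtubule regulator of growing axons, had 67.7 FPKM in the stressed and 247.8 FPKM in the unexposed library (log2 ratio -1.86). UCHL1, a neuronal ubiquitin hydrolase, had 32.7 and 128.3 FPKM (-1.94), and the growth-cone protein GAP43 had 8.03 and 29.8 FPKM (-1.77). These 3 genes of axon growth and maintenance were each more than 3-fold lower in the stressed library. The synaptic vesicle fusion protein SNAP25 was at 81.5 FPKM in the stressed and 170.2 FPKM in the unexposed library (-1.05), and the neurofilament NEFM at 38.1 and 62.0 FPKM (-0.69). The vesicle protein SYN1 was nearly level, with 11.3 FPKM in the stressed and 11.5 FPKM in the unexposed library.

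Several peptide transmitters were lower as well. NPY, neuropeptide Y, a co-transmitter of sympathetic nerves that chromaffin cells also make (chromosome 14, 37824560 to 37831424), had 35.2 FPKM in the stressed and 265.8 FPKM in the unexposed Beagle library, against 25.8 and 27.1 FPKM in the stressed and unexposed Chinese Field Dog libraries. Its log2 ratio was -2.88, with a read interval of -3.14 to -2.76. GAL, galanin (chromosome 18, 49240310 to 49246359), had 14.3 FPKM in the stressed and 106.0 FPKM in the unexposed Beagle library (-2.80), against 8.18 and 12.2 FPKM in the Chinese Field Dog pair. VIP, vasoactive intestinal peptide, had 5.37 FPKM in the stressed and 16.9 FPKM in the unexposed library (-1.49). For NPY and GAL, as for PRPH, the unexposed Beagle library alone was high.

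PENK, the enkephalin precursor, did not share this pattern, with 2804 FPKM in the stressed and 2854 FPKM in the unexposed library. CARTPT, another precursor of neuroendocrine cells, had 566 FPKM in the stressed and 670 FPKM in the unexposed library (-0.24). Of the 11 neuropeptide genes at or above the filter, 9 were lower and 2 higher, 5 were at least 2-fold lower, beside 2.45% of all genes, and the median was -0.36. UCN, urocortin, a relative of the stress hormone CRH, had the lowest ratio of all named genes, -3.35, but on 15 reads in the stressed and 163 in the unexposed library. Its locus in the tables overlaps that of TRIM54, which had 0.394 FPKM in the stressed and 2.06 FPKM in the unexposed library, so reads of these genes may not be separable.

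Genes of Schwann and sustentacular cells, the glia of the gland's nerves and medulla, were also lower. All 12 at or above the filter were lower in the stressed library, 5 of them at least 2-fold, beside 2.45% of all genes, with a median of -0.74. NGFR, the low-affinity neurotrophin receptor (chromosome 9, 25601479 to 25621942), had 8.72 FPKM in the stressed and 52.9 FPKM in the unexposed Beagle library, against 7.55 and 13.3 FPKM in the Chinese Field Dog pair. SOX10, a glial transcription factor, had 2.78 FPKM in the stressed and 4.72 FPKM in the unexposed library (-0.60). The 4 defining Schwann markers summed to 20.3 FPKM in the stressed and 47.7 FPKM in the unexposed Beagle library, and to 20.3 and 21.9 FPKM in the Chinese Field Dog pair.

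Medulla genes had a smaller median difference than nerve genes. Of 25, 22 were lower and 3 higher in the stressed library, 4 were at least 2-fold lower (RET, SLC18A2, SLC6A2 and DDC), beside 2.45% of all genes, and the median was -0.47. Among the enzymes of catecholamine synthesis, PNMT, which converts noradrenaline to adrenaline, had 584 FPKM in the stressed and 962 FPKM in the unexposed library (-0.72). DBH, the step before it, had 467 and 758 FPKM (-0.70), and TH, the first and rate-limiting enzyme, had 142 and 255 FPKM (-0.85). DDC, the second enzyme of the pathway, had 13 FPKM in the stressed and 29.6 FPKM in the unexposed library (-1.13). All 4 enzymes were thus lower in the stressed library, with DDC alone beyond 2-fold. In the Chinese Field Dog pair TH was nearly level, with 134 FPKM in the stressed and 140 FPKM in the unexposed library.

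The granule proteins of the same chromaffin cells were close to level. CHGA, chromogranin A, had 1920 FPKM in the stressed and 1752 FPKM in the unexposed library (0.13), and CHGB, chromogranin B, had 1539 and 1756 FPKM (-0.19). The transporters that load and retrieve catecholamines were lower: the vesicular transporter SLC18A2 had 11.4 FPKM in the stressed and 30.3 FPKM in the unexposed library (-1.34), its relative SLC18A1 had 45.1 and 80.4 FPKM (-0.82), and the noradrenaline uptake transporter SLC6A2 had 16.8 and 39.8 FPKM (-1.20). RET, a receptor of glial-derived growth factors used by sympathetic neurons, had 2.28 FPKM in the stressed and 7.32 FPKM in the unexposed library (-1.34). In these bulk samples, fewer cells of a type and less RNA per cell cannot be told apart. The part of the amount of nerve and medulla in each piece in these differences was not tested.

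Fat-cell genes were the other strongly lower list. Of 23 at or above the filter, 20 were lower and 3 higher in the stressed library, 13 were at least 2-fold lower, beside 2.45% of all genes, and the median was -1.16. In the Chinese Field Dog pair the median of the same list was 0.38, that is, higher in the stressed library. ADIPOQ, the fat-cell hormone adiponectin, listed in the tables as APM1 (chromosome 34, 19398224 to 19408430), had 5.67 FPKM in the stressed and 34.3 FPKM in the unexposed Beagle library, against 25.4 and 13.3 FPKM in the stressed and unexposed Chinese Field Dog libraries. Its log2 ratio in the Beagle was -2.40, with a read interval of -3.02 to -2.26. For ADIPOQ the stressed Beagle library was the lowest and the unexposed Beagle library the highest of the 4.

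Lipid-droplet and triglyceride genes showed the same order. PLIN1, the coat protein of fat droplets, had 1.51 FPKM in the stressed and 11.9 FPKM in the unexposed Beagle library (-2.36). CIDEC, a droplet fusion protein, had 4.11 and 22.9 FPKM (-2.22), and GPD1, which supplies glycerol phosphate, had 6.81 and 32.9 FPKM (-2.12). PCK1, listed as PEPCK, which feeds glycerol synthesis in fat cells, had 0.702 FPKM in the stressed and 9.51 FPKM in the unexposed library (-2.63). DGAT2, the last enzyme of triglyceride synthesis, had 4.08 and 33.1 FPKM (-2.75), though its locus overlaps MAP6 and MOGAT2. The 4 matched fat markers summed to 11.3 FPKM in the stressed and 69.3 FPKM in the unexposed Beagle library, and to 46.5 and 26.9 FPKM in the stressed and unexposed Chinese Field Dog libraries. The part of attached fat in these and other differences was not tested.

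**Figure D3:**
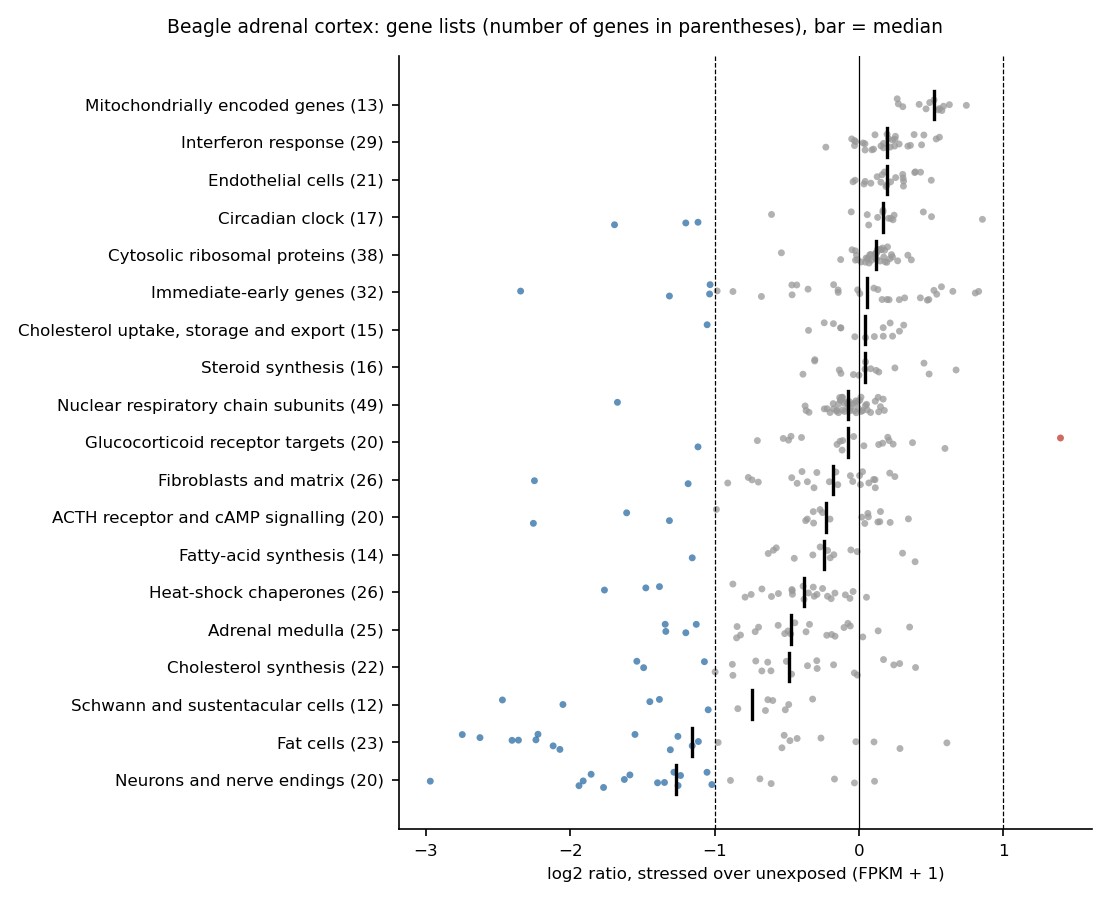
Each point is the log2 ratio of stressed over unexposed Beagle adrenal cortex of 1 gene, by list, with the number of genes at or above the FPKM filter in parentheses, a bar at the median and dashed lines at 2-fold. Neuron, fat and Schwann-cell genes have medians of -1.27, -1.16 and -0.74, and the mitochondrially encoded genes lie highest, at 0.52.

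The steroid pathway itself differed little. Of 16 genes, 9 were higher and 7 lower in the stressed library, none reached 2-fold, and the median was 0.04. HSD3B1, listed as HSD3B, which makes progesterone, had 4655 FPKM in the stressed and 4291 FPKM in the unexposed library (0.12), and the 21-hydroxylase CYP21 had 3804 and 3461 FPKM (0.14). STAR, which admits cholesterol to the pathway, was at a log2 ratio of -0.31 by FPKM. By reads it was at -0.35, with an interval of -0.36 to -0.33. The ferredoxin FDX1, which passes electrons to the mitochondrial P450 enzymes, was at -0.31 by FPKM. CYP11A1, the first enzyme, was at 0.04 by FPKM and at 0.0012 by reads, with a read interval of -0.02 to 0.02. At this depth the read ratio of STAR lies outside counting error, but with 1 dog or pool a side it has no measure of variation between animals. In the Chinese Field Dog pair STAR was higher in the stressed library, with 7984 FPKM in stressed and 5494 FPKM in unexposed.

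The largest ratio among the steroid genes was that of H6PD, which supplies NADPH in the endoplasmic reticulum, with 45.9 FPKM in the stressed and 28.5 FPKM in the unexposed Beagle library (0.67). The Chinese Field Dog libraries held 47.1 FPKM (stressed) and 46.8 FPKM (unexposed), so the unexposed Beagle library was the lowest of the 4. HSD11B2, which inactivates cortisol (chromosome 5, 81966342 to 81968303), had 1035 FPKM in the stressed and 557 FPKM in the unexposed Beagle library (0.89), against 1031 and 878 FPKM in the Chinese Field Dog pair. Its neighbour ATP6V0D1, 167 bases away, had 409 FPKM in the stressed and 214 FPKM in the unexposed library (0.93), so reads running across the boundary may tie these values together. HSD11B1, which regenerates cortisol, had 16.9 FPKM in the stressed and 17.8 FPKM in the unexposed library. The glucocorticoid receptor NR3C1 was level as well, with 11.6 FPKM in the stressed and 11 FPKM in the unexposed library.

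Genes of cholesterol synthesis were lower in the stressed library. Of 22, 18 were lower and 4 higher, 3 were at least 2-fold lower, beside 2.45% of all genes, and the median was -0.49. The unexposed Beagle library was the highest of the 4 for 18 of them, and for 28.6% of all genes with at least 100 reads. SQLE, squalene epoxidase, a rate-controlling enzyme, had 3.63 FPKM in the stressed and 12.4 FPKM in the unexposed Beagle library (-1.54), against 4.14 and 4.72 FPKM in the Chinese Field Dog pair. INSIG1, the sterol-sensing retention protein that is itself a target of the sterol regulator SREBP, had 14.8 FPKM in the stressed and 43.4 FPKM in the unexposed Beagle library (-1.49), against 15.3 and 11.5 FPKM in the Chinese Field Dog pair. For SQLE the stressed Beagle library was the lowest of the 4, and for INSIG1 it lay between the Chinese Field Dog libraries.

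Genes of cholesterol uptake, storage and export had a median near 0. Of 15, 8 were higher and 7 lower in the stressed library, with a median of 0.04. SCARB1, the high-density lipoprotein receptor that is the main route of cholesterol into steroid cells of several mammals, had 1134 FPKM in the stressed and 1240 FPKM in the unexposed library (-0.13). The storage enzyme SOAT1 had 260 FPKM in the stressed and 242 FPKM in the unexposed library (0.11). Fatty-acid synthesis lay between, with 12 of 14 genes lower, a median of -0.24, and FASN, the fatty-acid synthase, at 46.4 FPKM in the stressed and 72.3 FPKM in the unexposed library (-0.63).

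**Figure D4:**
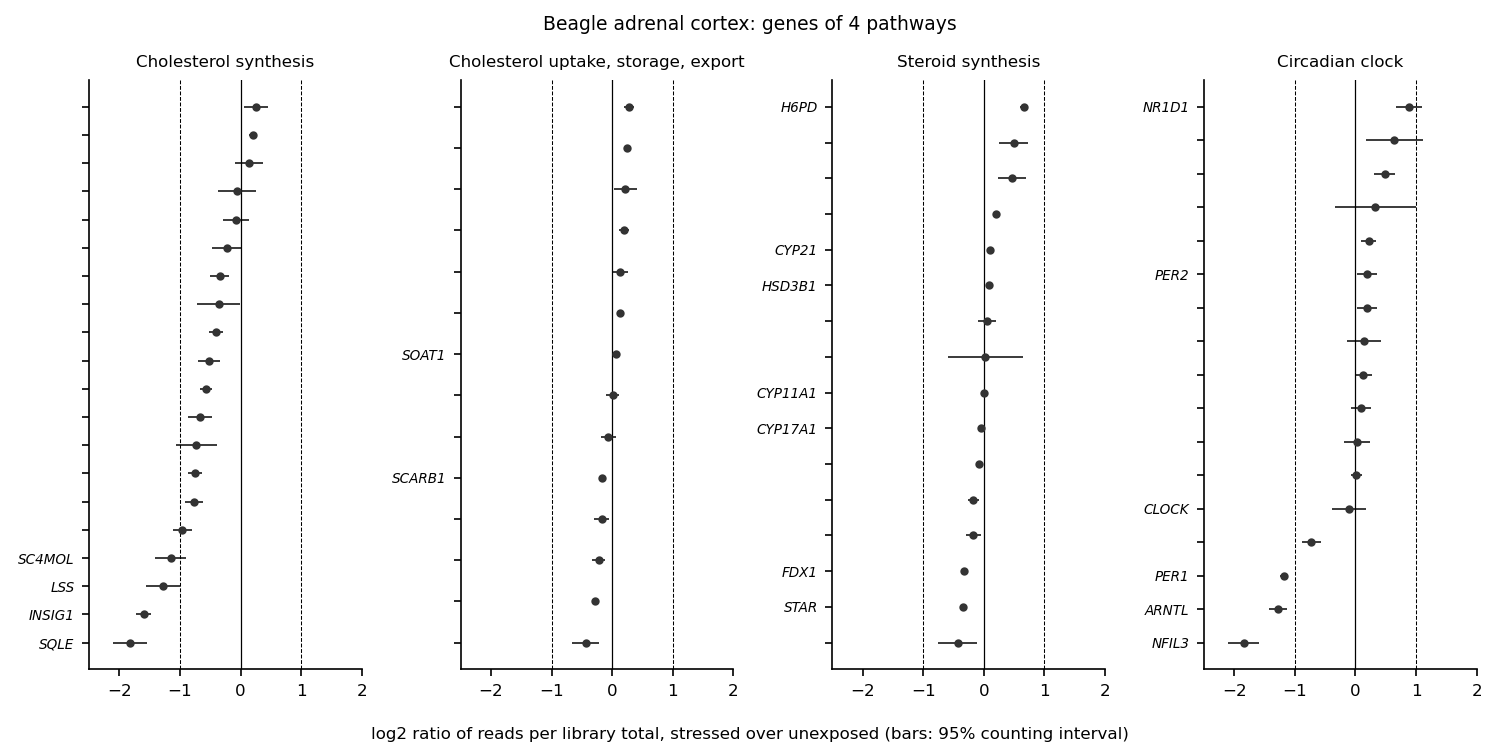
Log2 ratios of reads per library total, stressed over unexposed Beagle adrenal cortex, with bars for the 95% counting interval, for genes of cholesterol synthesis, cholesterol uptake, steroid synthesis and the circadian clock, with names at the genes given here or in the text and a few list members not plotted. SQLE, INSIG1, LSS, SC4MOL, NFIL3, ARNTL and PER1 lie left of the lower 2-fold line, whereas no steroid gene lies beyond either line.

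In the ACTH and cyclic AMP list the differences sat in a few inducible genes. Of 20, 9 were higher and 11 lower, 3 were at least 2-fold lower, beside 2.45% of all genes, and the median was -0.23. CREM, which includes a cyclic AMP-induced repressor form (chromosome 2, 1751311 to 1828948), had 10.3 FPKM in the stressed and 53.1 FPKM in the unexposed Beagle library, against 10.8 and 11.8 FPKM in the Chinese Field Dog pair. Its log2 ratio was -2.26, with a read interval of -2.51 to -2.23. MRAP, which carries the ACTH receptor to the cell surface, had 133 FPKM in the stressed and 407 FPKM in the unexposed library (-1.61), resting on 100 stressed and 248 unexposed reads. For CREM and MRAP the unexposed Beagle library was the highest of the 4.

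The receptor and the kinase were level. MC2R, the ACTH receptor, had 97.4 FPKM in the stressed and 88.9 FPKM in the unexposed library, and PRKACA, the catalytic subunit of protein kinase A, had 81.3 and 78.0 FPKM. GNAS, the stimulatory G protein, had 1020 FPKM in the stressed and 1174 FPKM in the unexposed library (-0.20).

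Immediate-early genes, induced within minutes by many stimuli, lay in both directions. Of 32, 17 were higher and 15 lower, none was 2-fold higher, 4 were 2-fold lower, beside 2.45% of all genes, and the median was 0.05. SIK1, a kinase induced by ACTH and cyclic AMP that restrains their signal (chromosome 31, 37455074 to 37465807), had 7.85 FPKM in the stressed and 43.9 FPKM in the unexposed Beagle library (-2.34), against 5.58 and 9.72 FPKM in the Chinese Field Dog pair. NR4A1, an orphan receptor that responds to ACTH and acts on steroid genes, had 119 FPKM in the stressed and 296 FPKM in the unexposed library (-1.31). ATF3 had 5.54 and 12.4 FPKM (-1.03). FOS and EGR1, transcription factors of the list, were higher without reaching 2-fold: FOS had 295 FPKM in the stressed and 198 FPKM in the unexposed Beagle library (0.57), and EGR1 had 208 and 149 FPKM (0.47). Others of the list were lower by less than 2-fold, such as JUNB, with 281 FPKM in the stressed and 379 FPKM in the unexposed library (-0.43), and FOSL2, with 96.0 and 133 FPKM (-0.46). In the Chinese Field Dog pair FOS was at 195 FPKM in stressed and 227 FPKM in unexposed.

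Heat-shock chaperones were nearly uniformly lower. Of 26, 25 were lower and 1 higher in the stressed library, 3 were at least 2-fold lower, beside 2.45% of all genes, and the median was -0.38, beside -0.05 in the Chinese Field Dog pair. HSP70, listed as HSPA1, the main inducible chaperone, had 198 FPKM in the stressed and 676 FPKM in the unexposed Beagle library (-1.76), against 279 and 322 FPKM in the Chinese Field Dog pair. Near-identical HSP70 copies may share reads, so this value may stand for more than 1 gene. HSPH1, a nucleotide exchange factor of HSP70, had 34.8 FPKM in the stressed and 98.6 FPKM in the unexposed library (-1.48), and DNAJB1, its co-chaperone, 15.0 and 40.8 FPKM (-1.38). The stressed Beagle library was the lowest of the 4 for 18 of the 26 chaperones, beside 20.4% of all genes with at least 100 reads. The unexposed one was the highest for 19, beside 28.6%.

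HSP90AA1, the inducible cytosolic HSP90 on which steroid receptors depend, had 723 FPKM in the stressed and 1214 FPKM in the unexposed library (-0.75). The mitochondrial HSPE1 was nearly level at 3562 and 3722 FPKM (-0.06). The unfolded-protein genes of the endoplasmic reticulum differed less, with 18 of 23 lower, none at 2-fold and a median of -0.12. Among them HSPA5, the reticulum's own HSP70, had 224 FPKM in the stressed and 294 FPKM in the unexposed library (-0.39).

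The circadian clock list held both directions. Of 17 genes, 12 were higher and 5 lower, none was 2-fold higher, 3 were 2-fold lower, beside 2.45% of all genes, and the median was 0.16. ARNTL, which encodes the activator BMAL1 (chromosome 21, 36293721 to 36323489), had 21.9 FPKM in the stressed and 51.5 FPKM in the unexposed Beagle library (-1.20), against 22.8 and 25.2 FPKM in the Chinese Field Dog pair. NFIL3, a repressor of clock output, had 8.41 FPKM in the stressed and 29.4 FPKM in the unexposed library (-1.69). NR1D1, REV-ERB alpha, which represses both of these genes, had 18.5 FPKM in the stressed and 9.80 FPKM in the unexposed Beagle library (0.85), against 10.8 and 11.3 FPKM in the Chinese Field Dog pair. NR1D2, of the same list, was nearly level, with 24.0 FPKM in the stressed and 23.1 FPKM in the unexposed Beagle library (0.06). RORA had 6.32 and 10.1 FPKM (-0.61). The part of NR1D1 in the ARNTL and NFIL3 values was not tested. The locus listed for NR1D1 overlaps 11 other genes, which limits how far its reads can be assigned.

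PER1, a clock gene that glucocorticoids and cyclic AMP also induce, had 39.7 FPKM in the stressed and 87.3 FPKM in the unexposed library (-1.12). PER2 had 8.82 and 7.43 FPKM (0.22) and CLOCK 5.88 and 6.15 FPKM (-0.05). The time of day of sampling is not given in the labels, and its part in these values was not tested.

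Genes that glucocorticoids induce in many tissues did not differ in 1 direction. Of 20, 9 were higher and 11 lower, 1 was 2-fold higher and 1 lower, beside 0.83% and 2.45% of all genes, and the median was -0.08. FKBP5, the usual marker of glucocorticoid exposure, had 107 FPKM in the stressed and 110 FPKM in the unexposed library. TSC22D3, also called GILZ, had 85.4 and 119 FPKM (-0.47). The metallothionein MT1, which binds zinc and copper and is induced by glucocorticoids, had 56.3 FPKM in the stressed and 20.8 FPKM in the unexposed Beagle library (1.39), against 32.8 and 28.4 FPKM in the Chinese Field Dog pair, whereas MT2A had 41.5 and 55.0 FPKM (-0.40) in the Beagle. Metallothionein copies are similar in sequence and may share reads.

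Among genes with a symbol used once and at least 100 reads, the 12 highest ratios ran from 1.12 to 4.0. They belonged to ALB, CORIN, NELL1, DHRS7C, INSL3, MT1, SLC30A2, CCL8, GJA1, C1orf167, WBSCR27 and ZNF385B. Of all 22 genes at least 2-fold higher with at least 100 reads, 17 had a symbol used once. In 9 of them the unexposed Beagle library was the lowest of the 4 adrenal libraries, beside 24.3% of all genes with at least 100 reads. In 5 the stressed one was the highest, beside 24.7%. Genes entered this set by their ratio, which favours a low unexposed and a high stressed value, so these counts are not a test. INSL3, insulin-like peptide 3, a relaxin-family hormone best known from Leydig and theca cells (chromosome 20, 45070771 to 45074495), had 298 FPKM in the stressed and 108 FPKM in the unexposed Beagle library, against 309 and 315 FPKM in the Chinese Field Dog pair. Its log2 ratio was 1.45, with a read interval of 1.37 to 1.47 from 12761 stressed and 4164 unexposed reads. GJA1, connexin 43, the gap-junction protein of the inner cortical zones in several species (chromosome 1, 60941787 to 60942950), had 237 FPKM in the stressed and 102 FPKM in the unexposed Beagle library (1.20), against 284 and 228 FPKM in the Chinese Field Dog pair. For both genes 3 libraries were high and the unexposed Beagle library alone was low.

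CORIN, the protease that activates the natriuretic peptide ANP (chromosome 13, 43400826 to 43698286), had 20.3 FPKM in the stressed and 3.91 FPKM in the unexposed Beagle library, against 3.83 and 10.4 FPKM in the Chinese Field Dog pair. Its log2 ratio was 2.12, with a read interval of 2.09 to 2.59. Here the stressed Beagle library was the highest of the 4 and the breeds ran in opposite directions. The locus overlaps ATP10D, which had 10.6 FPKM in the stressed and 6.45 FPKM in the unexposed Beagle library (0.64) and 6.53 and 9.40 FPKM in the Chinese Field Dog pair (-0.46), so their reads may not be separable. NPR1, the receptor of ANP, had 114 FPKM in the stressed and 76.4 FPKM in the unexposed Beagle library (0.57). SLC30A2, a zinc exporter, had 17.4 FPKM in the stressed and 6.29 FPKM in the unexposed library (1.34).

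ALB, serum albumin (chromosome 13, 62152697 to 62169575), had 27.6 FPKM on 1014 reads in the stressed and 0.790 FPKM on 26 reads in the unexposed Beagle library. The log2 ratio on the FPKM + 1 scale was 4.0, which understates a gene this low in one library, and the read interval was 4.53 to 5.71. The Chinese Field Dog libraries held 9.09 FPKM in stressed and 0.121 FPKM in unexposed, so both stressed libraries were above both unexposed ones. Some other hepatocyte genes had few reads in the stressed and none in the unexposed Beagle library: FGA, a fibrinogen chain, had 38 reads in the stressed and 0 in the unexposed library, FGB, another, had 33 and 0, AHSG, fetuin-A, had 32 and 0, and TTR, transthyretin, had 20 and 0. Up to 3 reads are possible behind a 0. The Chinese Field Dog libraries held 61 (stressed) and 2 (unexposed) reads of FGA, 71 and 2 of FGB, 26 and 1 of AHSG, and 5 and 0 of TTR, so the stressed library was the higher one in both breeds. FGG, the remaining fibrinogen chain, was nearly level in the Beagle, with 1079 reads in the stressed and 894 in the unexposed library (0.11). In the Chinese Field Dog pair FGG was higher in the stressed library, with 2387 reads in stressed and 286 in unexposed (3.32). All 6 defining hepatocyte markers were higher in the stressed library, 4 of them with reads in both libraries, and their sum was 585 FPKM in the stressed and 367 FPKM in the unexposed Beagle library, of which APOA1 alone made up 539 and 354 FPKM. The same sum was 410 FPKM in the stressed and 286 FPKM in the unexposed Chinese Field Dog library. The part of liver RNA in these values was not tested.

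Not all plasma-protein genes followed. Of 20 at or above the filter, 13 were higher and 7 lower, with a median of 0.21. HP, haptoglobin, an acute-phase protein, had 7.70 FPKM in the stressed and 26.3 FPKM in the unexposed Beagle library (-1.65), against 52.5 and 9.13 FPKM in the Chinese Field Dog pair. ITIH4 had 71.4 FPKM in the stressed and 182 FPKM in the unexposed Beagle library (-1.33). It was lower in the stressed Chinese Field Dog library too, with 44.2 and 175 FPKM (-1.96). APOA1, the protein of high-density lipoprotein, had 539 FPKM in the stressed and 354 FPKM in the unexposed Beagle library (0.61).

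All 13 mitochondrially encoded genes were higher in the stressed library, none by 2-fold, with a median of 0.52, beside 0.67 in the Chinese Field Dog pair. MT-ND3, a complex I subunit, had 13780 FPKM in the stressed and 8234 FPKM in the unexposed library (0.74), and COX1, of cytochrome oxidase, had 32972 and 26731 FPKM (0.30). Genes of the mitochondrial chromosome took 13.9% of all reads in the stressed and 10.4% in the unexposed Beagle library, with 14.5% and 10.5% in the stressed and unexposed Chinese Field Dog libraries. Both stressed libraries thus held more. The nuclear genes of the same respiratory complexes did not share this: 14 were higher and 35 lower of 49, with a median of -0.07 in the Beagle, beside 0.35 in the Chinese Field Dog pair. Cytosolic ribosomal protein genes were slightly higher, 31 of 38, with a median of 0.12.

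Genes of the outer cortex and capsule were mostly level, with 13 of 21 higher, 8 lower and a median of 0.05. PCP4, a calmodulin regulator, was 2-fold higher on 71 stressed and 23 unexposed reads, with 7.26 FPKM in the stressed and 2.64 FPKM in the unexposed library (1.18). SHH, the signal that outer cortical cells send to capsular progenitors, was 2-fold lower, with 3.37 FPKM in the stressed and 13.7 FPKM in the unexposed Beagle library (-1.75), against 10.8 and 6.81 FPKM in the Chinese Field Dog pair. The stressed Beagle library was the lowest of the 4 and the unexposed one the highest. Its receptor gene PTCH1 had 8.10 FPKM in the stressed and 4.60 FPKM in the unexposed library (0.70), and the hedgehog target GLI1 had 2.80 and 2.40 FPKM (0.16). AGTR1, the angiotensin II receptor, had 322 FPKM in the stressed and 443 FPKM in the unexposed library (-0.46), and the zona glomerulosa potassium channel KCNJ5 had 119 and 95.8 FPKM (0.30).

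Immune and vascular lists were shifted by small amounts. Interferon-response genes were higher for 24 of 29, none by 2-fold, with a median of 0.19. In the unexposed Beagle library 24 of the 29 were lowest of the 4 adrenal libraries, beside 24.3% of all genes with at least 100 reads. A gene lower in both Beagle libraries than in both Chinese Field Dog libraries can enter this count. Endothelial genes were higher for 19 of 21, none by 2-fold, with a median of 0.19, and KDR, the main receptor of the growth factor VEGF, had 32.2 FPKM in the stressed and 23.7 FPKM in the unexposed library (0.43). Among cytokine genes 11 were higher and 13 lower, with a median of -0.02. IL8, a neutrophil attractant, had 14.2 FPKM in the stressed and 31.8 FPKM in the unexposed library (-1.11), while CCL8, a monocyte attractant, had 9.42 and 3.48 FPKM (1.22) on 109 and 36 reads. Macrophage genes were level, with a median of 0.04 over 18 genes.

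Matrix genes were a little lower, 17 of 26, with a median of -0.18. THY1, a surface protein of fibroblasts and neurons, had 24.0 FPKM in the stressed and 55.9 FPKM in the unexposed library (-1.18), and the collagen COL1A1 had 30.3 and 31.6 FPKM (-0.06). Cell-cycle genes were low in both libraries and had a median of -0.13 over 21 genes, with the mitotic kinase CDK1 at 2.82 FPKM in the stressed and 6.96 FPKM in the unexposed library (-1.06). Over all 40 lists, 21 had a median below 0 and 19 above, and 58 of the 223 genes at least 2-fold lower (26.0%) were in any list.

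**Figure D5:**
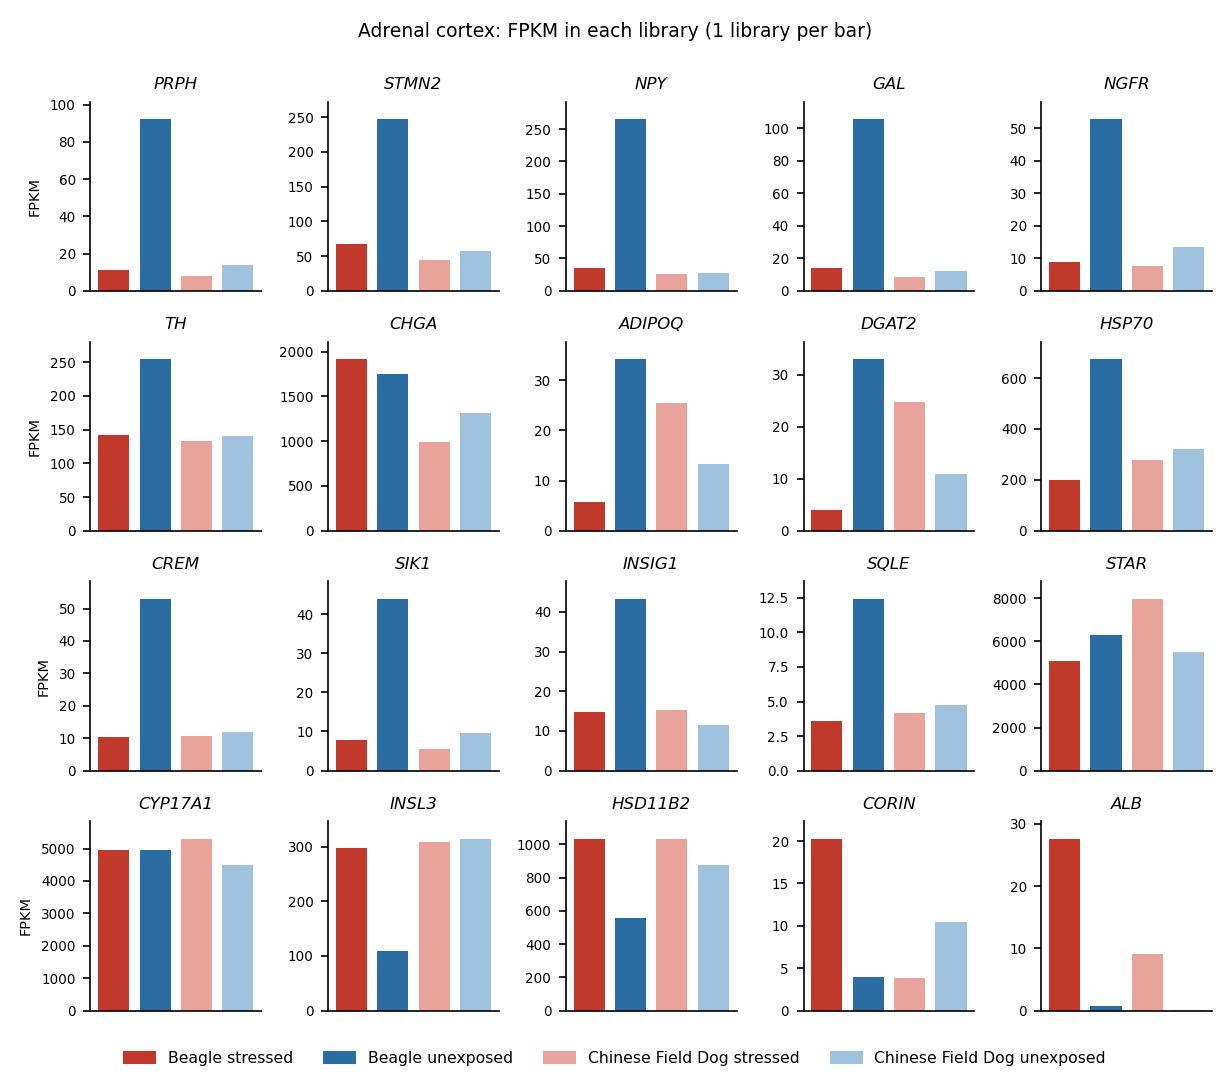
FPKM of 20 genes in the 4 adrenal libraries, 1 library per bar, on axes that start at 0. In PRPH, STMN2, NPY, GAL, NGFR, HSP70, CREM, SIK1, INSIG1 and SQLE the unexposed Beagle bar alone is tall, in INSL3 it alone is short, and CYP17A1 differs little between the Beagle bars.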

How the data were processed

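RNA was sequenced from adrenal cortex after TruSeq library preparation on the Genome Analyzer IIx, per the labels' protocols and design. Reads were aligned with TopHat to CanFam3.1, per the submitters' processing notes; the counting program, annotation and strand setting are not given in the sources used here. The authors deposited FPKM and a scaled count, a signal per gene, for 24580 genes, of which 16080 had a symbol used once. Gene coordinates are those of the tables.

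Scaled counts were divided by the value of 1 read in each library, after which 97.6% (stressed) and 97.7% (unexposed) of Beagle values were whole within 0.02. For the stressed Beagle library, where 1 read was worth nearly 1 unit, they are near the true counts and not taken as exact. A count test on these reads was not possible with 1 library a side. FPKM and read ratios correlated at 0.994 across 12239 genes.

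Ratios are log2((FPKM + 1) stressed / (FPKM + 1) unexposed), for every gene whose FPKM averaged 1 or more over the pair, and a call needed 2-fold. Intervals are 95% Clopper-Pearson intervals on reads over library totals, and up to 3 reads are possible behind a 0. The interval code was tested on simulated data. Genes open to naming were the 12 highest and 12 lowest ratios among genes with a symbol used once and at least 100 reads. The 10 most abundant genes and the defining markers were open to naming too. In each list, so were the 4 largest ratios and the 3 most abundant genes with at least 100 reads. The text names only some of the genes open to naming. Others named beside them (AHSG, ATP10D, ATP6V0D1, CCL21, CLOCK, COL1A1, CYP21, EGR1, FGG, FOSL2, GAP43, GLI1, GPD1, KCNJ5, MT2A, NEFM, NR1D2, NR3C1, PCP4, PER2, PRKACA, RBFOX3, RORA, SLC18A1, SOX10, SYN1, TRIM54, TSC22D3 and TTR) were chosen after their values were seen. The 40 lists held 989 symbols, of which 827 were matched. The pair and the lists were chosen with earlier results of these data known. The authors' ratio, p and flag columns and the other tables were not used, and a few genes are not reported here. Python 3.11.15, pandas 2.3.3, scipy 1.17.1 and edgeR 4.0.16 (TMM factors) were used.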

Additional observations from a re-analysis of the deposited data

Results flagged for a closer look

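Genes were looked at again where both breeds differed by at least 2-fold in opposite directions with at least 100 reads in each adrenal pair. The difference between breeds was not tested for any of these genes, since each value rests on 1 library a side. DGAT2 had a log2 ratio of -2.75 in the Beagle and 1.12 in the other breed. TNMD, tenomodulin, a tendon and fat-tissue gene, had -2.25 in the Beagle, from 2.21 FPKM in the stressed and 14.2 FPKM in the unexposed library, and 2.35 in the Chinese Field Dog. HP, haptoglobin, had -1.65 in the Beagle and 2.40 in the other breed. CALB1, the calcium buffer calbindin, had -1.24 in the Beagle, from 1.03 FPKM in the stressed and 3.80 FPKM in the unexposed library, while the Chinese Field Dog libraries held 5.26 FPKM (stressed) and 2.12 FPKM (unexposed). IL8 had -1.11 in the Beagle and 1.48 in the other breed. CORIN was the one gene higher in the Beagle, at 2.12, and lower in the Chinese Field Dog, at -1.24, and its locus overlaps ATP10D.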

How the results depend on the processing

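No paired analysis was possible because each side has 1 library, and leaving out a replicate was not possible for the same reason. Of the counts over all genes, the total of 450 became 231 with a pseudocount of 5, 277 with at least 50 reads, and 231 where the whole counting interval had to lie beyond 2-fold. The 114 higher genes became 189 with a pseudocount of 0.1, 68 with a pseudocount of 5, 30 with at least 50 reads, 35 by reads scaled to library depth, 38 with TMM factors and 19 by the interval. The 336 lower genes became 163 with a pseudocount of 5 and 212 by the interval. Lower genes made up 89.17% of calls with at least 50 reads. With no filter, the list medians of muscle (-0.0173) and epithelium (-0.0132) changed sign, and with a mean FPKM of at least 5 so did those of T and natural killer cells (0.5479) and of B cells and spleen (-0.1117); the set of genes changes with the filter. Of 319 list medians under these settings, 299 moved by less than the median counting error of their members. The 12 highest and 12 lowest ratios were also recomputed, giving 189 values, of which 20 moved beyond their counting error. None changed sign, but these genes were picked for large ratios, so a change of sign was hardly possible. Depth limits genes under 10 reads most: of 177 such genes 61 were higher and 50 lower by 2-fold.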

Other observations

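Most of the 223 genes at least 2-fold lower in the stressed Beagle library were in no list, and the genes named here were chosen after their values were seen. Some encode parts of the neuronal skeleton: the tubulin TUBB2B had 28.8 FPKM in the stressed and 142 FPKM in the unexposed library (-2.27), and MAP1B, a microtubule-associated protein of axons, had 5.09 and 20.9 FPKM (-1.85). Others are more widely expressed. SAT1, the enzyme that starts polyamine breakdown, had 62.9 FPKM in the stressed and 211 FPKM in the unexposed library (-1.73). ALAS1, the first enzyme of haem synthesis, which supplies the cytochromes of steroid synthesis, had 268 FPKM in the stressed and 664 FPKM in the unexposed Beagle library (-1.31), against 385 and 284 FPKM in the Chinese Field Dog pair. The Chinese Field Dog libraries held SAT1 at 76.0 FPKM in stressed and 71.8 FPKM in unexposed.

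PROM1, a membrane protein of epithelial and progenitor cells, had 111 FPKM in the stressed and 54.9 FPKM in the unexposed Beagle library, and 111 and 18.1 FPKM in the stressed and unexposed Chinese Field Dog libraries. It was higher in the stressed library of both breeds, as were ALB and the mitochondrially encoded genes taken by their median. Across 12121 genes the log2 ratios of the 2 breeds correlated weakly, with Pearson's r of 0.118 and Spearman's rho of 0.0724, and genes are not independent replicates.

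FPKM of very short genes was large on few reads. TMSB10, thymosin beta 10, was listed at 36111 FPKM in the stressed and 113279 FPKM in the unexposed library on 497 and 1012 reads, so its log2 ratio was -1.65 by FPKM and -1.22 by reads. CCL21 was listed at 1830 FPKM in the stressed library on 3 reads and at 0 in the unexposed one.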
